A study of Arabidopsis thaliana with 12 samples.

Results

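GID1B (AT3G63010) and GID1C (AT5G27320) are members of the small family of soluble gibberellin receptors of Arabidopsis thaliana. The genes were taken as those with a probe set paired with GID1B alone or GID1C alone. This gave 2 genes with 1 probe set each among the 22746 probe sets on the array other than controls. Both passed the filter on low signal, as did 15025 probe sets in all. Seedlings were of the Columbia ecotype and 4 days old, grown in darkness for 4 days after 8 h of light, with or without 100 nM 24-epibrassinolide (24-eBL), a brassinosteroid, in the medium. The groups were axr2 with 24-eBL, axr2 mock, msg2 with 24-eBL, msg2 mock, wild type with 24-eBL and wild type mock, with 2 Affymetrix ATH1 arrays each, which the submitters describe as biological replicates. As background, msg2 and axr2 are mutants with dominant lesions in auxin-response repressors of the Aux/IAA family that stabilise the repressor protein, so the transcript level of the mutated gene would not check the labels. The labels name no allele.

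A gibberellin receptor of this family binds bioactive gibberellin in the nucleus and then holds a DELLA protein, a repressor of growth. The complex is recognised by an F-box protein such as SLY1, and the DELLA protein is broken down. GID1A, GID1B and GID1C are the receptor genes of Arabidopsis, with overlapping functions. Genetically GID1A and GID1C contribute most to stem growth, while GID1B binds gibberellin tightly and can bind DELLA proteins weakly without it. Gibberellin, brassinosteroid and auxin all promote elongation of the hypocotyl of seedlings in darkness, the material measured here.

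Values are log2 signals as deposited, and arrays were already scaled to a common mean. Whole seedlings were measured, so fewer cells of a type that expresses a gene and less RNA per cell cannot be told apart. Array medians ran from 6.92 to 7.19, and arrays of a group had a Pearson r of 0.968 to 0.979 with each other, against 0.890 to 0.968 for arrays of different groups. Of 24 marker genes of organs and light state, 3 had a single-gene probe set. PORB, a protochlorophyllide reductase gene, was at 12.50 to 13.20 on the 12 arrays. The root-hair expansin gene EXPA18 exceeded the 40th percentile of signal on 12 arrays and EXPA7 on 7. The defining markers of shoot, photosynthetic and seed tissue were not analysed here.

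GID1B was lower in axr2 than in wild type with and without 24-eBL, lower in msg2 with 24-eBL, and higher with 24-eBL on average over the genotypes. With 24-eBL its signal was 8.81 and 8.43 in axr2, 8.90 and 9.27 in msg2, and 9.71 and 9.91 in wild type. Without 24-eBL it was 8.50 and 8.26 in axr2, 8.71 and 8.68 in msg2, and 9.14 and 9.40 in wild type. The wild-type arrays with 24-eBL were above every mutant array, and the mock wild-type arrays were above every mock mutant array. The 6 group means spanned 1.43 log2 units, against a pooled SD within groups of 0.19 (6 residual degrees of freedom).

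GID1C was also lower in axr2 than in wild type under both conditions and in msg2 with 24-eBL, and its mean over genotypes was nearly the same with and without 24-eBL. With 24-eBL its signal was 7.11 and 7.63 in axr2, 7.46 and 7.44 in msg2, and 8.34 and 8.52 in wild type. Without 24-eBL it was 6.80 and 7.09 in axr2, 7.90 and 7.65 in msg2, and 8.35 and 8.46 in wild type. All 4 wild-type arrays lay above all 8 mutant arrays. The group means spanned 1.49 log2 units, against a pooled within-group SD of 0.20. None of the values of GID1B or GID1C fell to the 40th percentile of its array, which was 5.99 to 6.34 and marks a dim signal here.

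GID1A (AT3G05120), the third receptor gene, is set beside them as the nearest relative on the array. With 24-eBL its signal was 9.52 and 9.32 in axr2, 9.41 and 9.60 in msg2, and 9.42 and 9.46 in wild type. Without 24-eBL it was 9.43 and 8.96 in axr2, 9.39 and 9.57 in msg2, and 9.45 and 9.65 in wild type. Its group means spanned 0.35 log2 units, and every group overlapped its neighbour in the order of means.

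**Figure D1:**
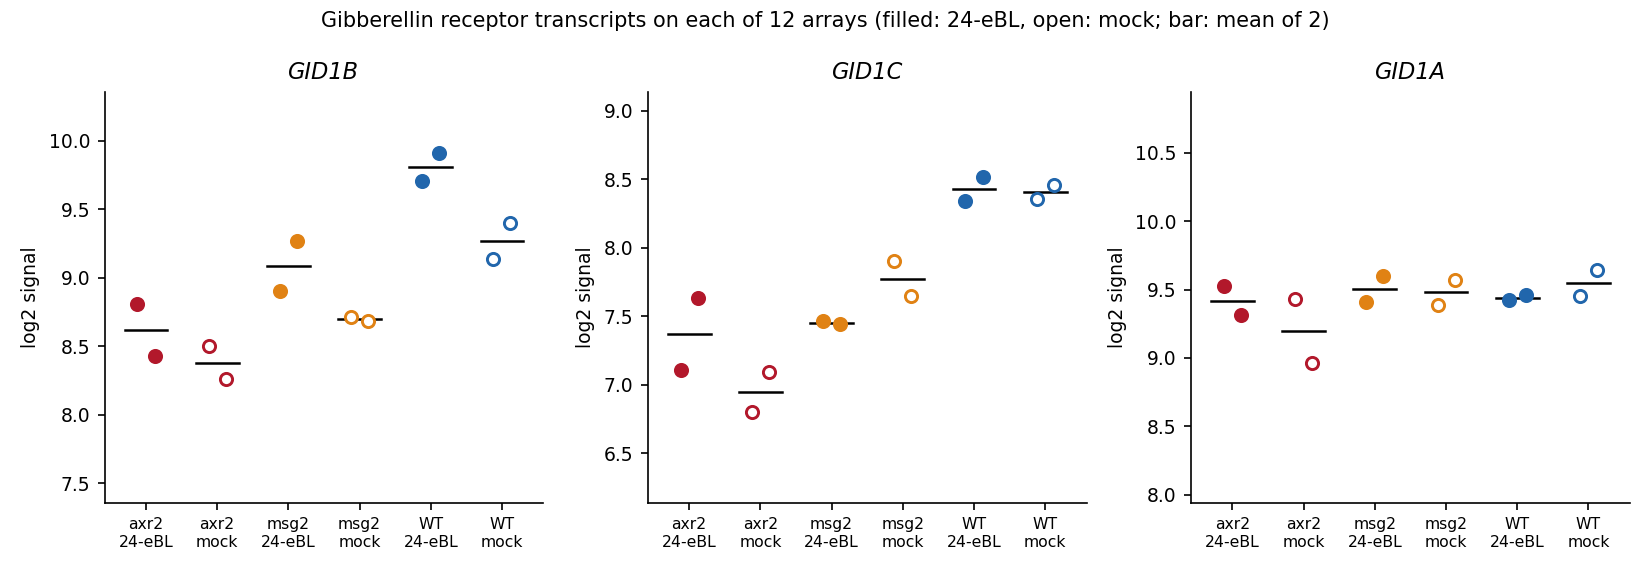
Log2 signal (vertical axis) of GID1B, GID1C and GID1A on each of 12 arrays by genotype and treatment, with filled points for 24-eBL, open points for mock and a bar at the mean of the 2 arrays. Each panel spans 3 log2 units around its own median. The wild-type points of GID1C, from 8.34 to 8.52, all lie above its mutant points, while the points of GID1A overlap between neighbours in the order of means.

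From lowest to highest mean, GID1B ran from axr2 mock (8.38 ± 0.17) through axr2 with 24-eBL (8.62 ± 0.27), msg2 mock (8.70 ± 0.02), msg2 with 24-eBL (9.09 ± 0.26) and wild type mock (9.27 ± 0.19) to wild type with 24-eBL (9.81 ± 0.14; SD, n = 2 each). The neighbours axr2 mock and axr2 with 24-eBL overlapped, as did axr2 with 24-eBL and msg2 mock, and msg2 with 24-eBL and wild type mock. The step from wild type mock to wild type with 24-eBL, 0.54, was larger than the pooled SD and had no overlap.

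GID1C ran from axr2 mock (6.95 ± 0.20) through axr2 with 24-eBL (7.37 ± 0.37), msg2 with 24-eBL (7.45 ± 0.01), msg2 mock (7.77 ± 0.18) and wild type mock (8.41 ± 0.07) to wild type with 24-eBL (8.43 ± 0.12; SD, n = 2 each). Its largest step between neighbours was the 0.63 from msg2 mock to wild type mock. The neighbours axr2 with 24-eBL and msg2 with 24-eBL overlapped, and so did both wild-type groups.

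The rank of a probe set within its own array does not depend on how arrays are scaled. For GID1C, 45.4 to 57.7% of the probe sets of the array were dimmer in axr2, 55.9 to 61.6% in msg2 and 66.6 to 69.7% in wild type. For GID1B the share was 65.8 to 73.3% in axr2, 71.3 to 78.2% in msg2 and 76.9 to 84.4% in wild type. For GID1A it was 74.8 to 81.2% in axr2, 79.4 to 81.6% in msg2 and 79.5 to 81.9% in wild type. With treated and mock arrays pooled, the ranks of GID1C in axr2 and in wild type did not overlap, and neither did those of GID1B. The pooled ranks of GID1A did overlap. On mock arrays alone those of GID1A were also separate, at 79.9 and 74.8% in axr2 and 80.3 and 81.9% in wild type. On treated arrays they overlapped, at 81.2 and 78.9% in axr2 and 79.5 and 80.2% in wild type.

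The first comparison set the receptor transcripts of axr2 beside those of wild type. Changes are log2 differences ± SE from a linear model fitted with limma to all tested probe sets on 12 arrays, with p adjusted by the Benjamini-Hochberg method over the 15025, and a change was called at an adjusted p under 0.05. Without 24-eBL, GID1C was 2.75-fold lower in axr2 than in wild type (-1.46 ± 0.22, limma adjusted p = 7.3e-05) and GID1B was 1.85-fold lower (-0.89 ± 0.19, limma adjusted p = 0.0017). With 24-eBL, GID1B was 2.29-fold lower (-1.19 ± 0.19, limma adjusted p = 0.00015) and GID1C 2.09-fold lower (-1.06 ± 0.22, limma adjusted p = 0.0014). Arrays of the compared groups did not overlap in any of these 4 comparisons, and all 4 stayed called in each of the 12 fits that omitted an array.

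The axr2 mutant differed from wild type at many probe sets, and the calls of GID1B and GID1C are to be read against that. Of the tested probe sets 35.5% were called without 24-eBL, 15.0% as lower and 20.5% as higher, and 28.6% with 24-eBL, 14.0% as lower and 14.6% as higher. Without 24-eBL the split depended on scaling: 3078 were called higher and 2251 lower as deposited, 2632 higher and 2528 lower after quantile normalisation, and 1766 higher and 3389 lower (22.6%) with arrays centred on their medians. Called lower under both conditions, as GID1B and GID1C were, were 1389 probe sets, 9.24% of those tested. Without 24-eBL the median change of all tested probe sets was 0.13 (0.03 after quantile normalisation and -0.10 with centred arrays), and relative to it GID1C changed by -1.59 and GID1B by -1.02. A lower change than that of GID1C was held by 3.19% of tested probe sets and a lower change than that of GID1B by 8.33%. With 24-eBL the share for GID1B was 4.82%.

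For GID1A the difference of axr2 from wild type was -0.35 without 24-eBL (95% confidence interval -0.74 to 0.03, limma adjusted p = 0.14) and -0.02 with it (-0.41 to 0.36, limma adjusted p = 0.95). Its arrays without 24-eBL did not overlap either, all being lower in axr2, and with arrays centred on their medians this change was called (-0.58, limma adjusted p = 0.020), as it was without axr2 mock replicate 1 (-0.59, limma adjusted p = 0.038). The interval with 24-eBL reaches neither the estimate of GID1B nor that of GID1C.

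The msg2 mutant was set beside wild type in the same way. With 24-eBL, GID1C was 1.97-fold lower in msg2 than in wild type (-0.98 ± 0.22, limma adjusted p = 0.012) and GID1B 1.65-fold lower (-0.72 ± 0.19, limma adjusted p = 0.029), in a contrast where 7.51% of probe sets were called, 3.45% as lower and 4.06% as higher. Without 24-eBL the differences were -0.63 ± 0.22 for GID1C (limma adjusted p = 0.13) and -0.57 ± 0.19 for GID1B (limma adjusted p = 0.11), and neither passed the threshold, in a contrast where 4.12% were called, 2.00% as lower and 2.12% as higher (319 higher and 300 lower as deposited, 203 higher and 371 lower with centred arrays). The arrays of msg2 and wild type did not overlap for GID1B or GID1C in either condition. Of all tested probe sets, 2.12% were called lower in axr2 under both conditions and in msg2 with 24-eBL, as GID1B and GID1C were.

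The calls in msg2 rested on few arrays. For GID1C the adjusted p was 0.082 without wild type with 24-eBL replicate 2, 0.079 without msg2 with 24-eBL replicate 1 and 0.062 without msg2 with 24-eBL replicate 2. For GID1B it was 0.070 and 0.16 without wild type with 24-eBL replicates 1 and 2, 0.27 without msg2 with 24-eBL replicate 1, and 0.083 in a fit without the intensity trend. The difference of GID1A in msg2 was 0.06 with 24-eBL (95% confidence interval -0.32 to 0.45, limma adjusted p = 0.89) and -0.07 without it (-0.46 to 0.31, limma adjusted p = 0.89).

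**Figure D2:**
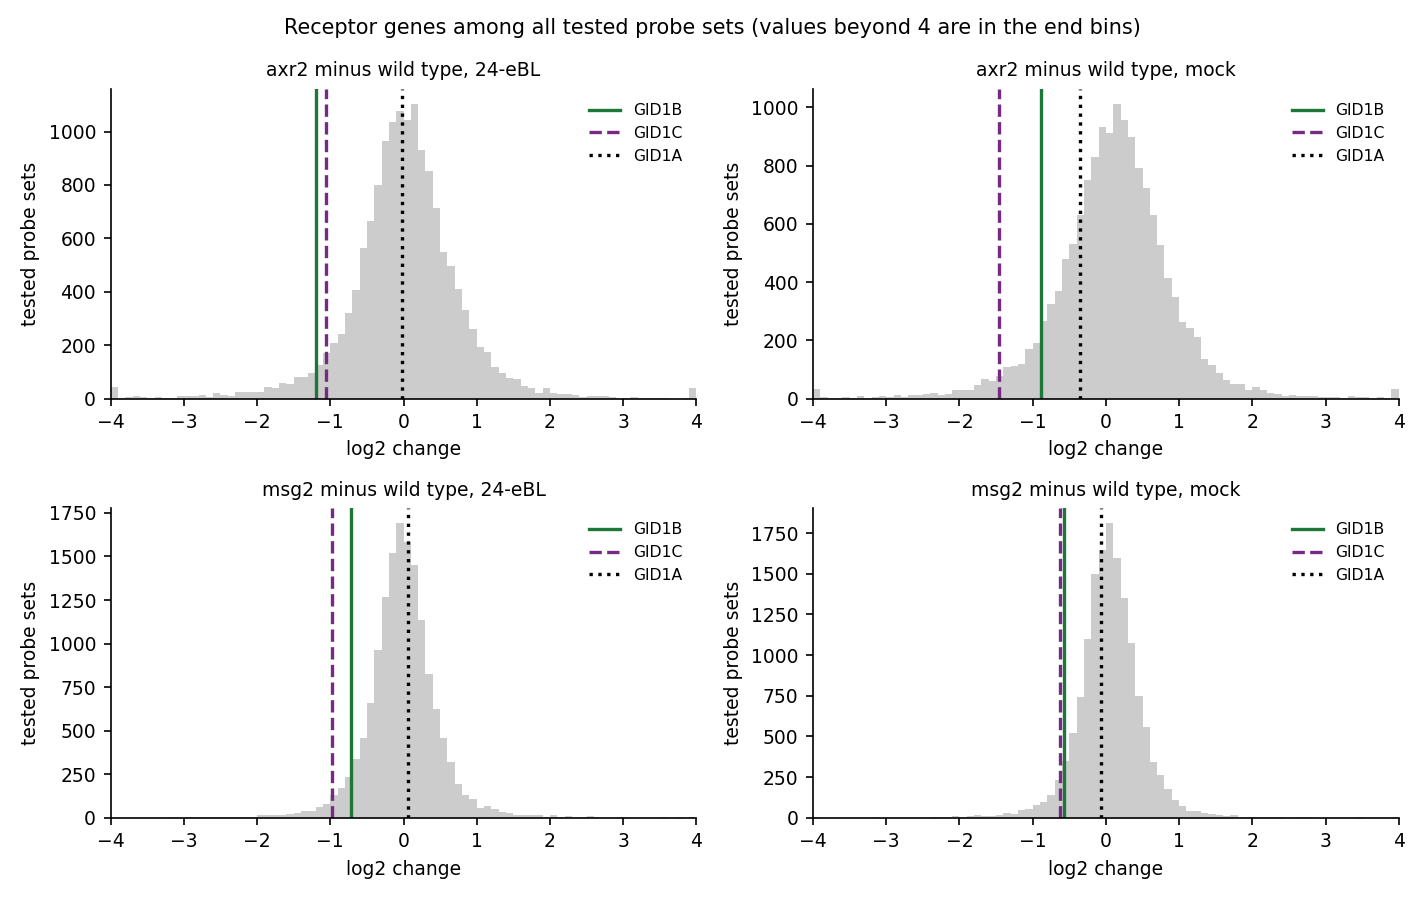
Number of tested probe sets (vertical axis) by log2 change in a mutant against wild type (horizontal axis, bins of 0.1), with lines at GID1B, GID1C and GID1A, for axr2 (top) and msg2 (bottom), with 24-eBL (left) and mock (right). GID1B and GID1C lie in the lower tail of each panel, with changes from -1.46 to -0.57, and GID1A lies between -0.35 and 0.06. Changes beyond 4 are counted in the end bins.

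The mutants were also set against each other. Without 24-eBL, GID1C was 1.77-fold lower in axr2 than in msg2 (-0.83 ± 0.22, limma adjusted p = 0.016; 16.8% of probe sets were called, 8.52% as lower and 8.27% as higher). The split was 1242 higher and 1280 lower as deposited and 672 higher and 1838 lower (12.2% lower) with centred arrays. The adjusted p of GID1C adjusted p was 0.15 without msg2 mock replicate 1 and 0.10 without axr2 mock replicate 1. The difference of GID1B was -0.32 (95% confidence interval -0.73 to 0.09, limma adjusted p = 0.28). With 24-eBL the difference was -0.08 for GID1C (-0.55 to 0.38, limma adjusted p = 0.85), whose arrays overlapped, and -0.47 for GID1B (-0.88 to -0.06, limma adjusted p = 0.13), whose arrays did not, in a contrast where 12.8% were called, 7.07% as lower and 5.73% as higher. That split was 861 higher and 1063 lower as deposited and 616 higher and 1357 lower with centred arrays.

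The response to 24-eBL passed the threshold for GID1B in the mean over genotypes and not for GID1C. GID1B was 1.31-fold higher with 24-eBL in the mean over the 3 genotypes (0.39 ± 0.11, limma adjusted p = 0.036), in a contrast where 8.71% of probe sets were called, 3.73% as higher and 4.98% as lower. That split was 561 higher and 748 lower as deposited and turned to 709 higher and 580 lower with arrays centred on their medians. An exact permutation test of its 12 values alone, with treatment labels exchanged within genotypes over 216 arrangements, gave a two-sided p of 0.0185, where the smallest p possible was 0.00926. For GID1C the mean response was 0.04 (95% confidence interval -0.23 to 0.31, limma adjusted p = 0.90; exact permutation p = 0.815). For GID1A it was 0.05 (-0.18 to 0.27, limma adjusted p = 0.86; exact permutation p = 0.713).

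The call of GID1B was narrow: it was lost in 7 of 12 fits without 1 array, with adjusted p from 0.078 to 0.12 (without wild type mock replicate 1, wild type with 24-eBL replicate 2, msg2 mock replicate 1 or 2, msg2 with 24-eBL replicate 2, axr2 mock replicate 2 or axr2 with 24-eBL replicate 1), and was 0.089 without the intensity trend. The root-hair genes EXPA7 and EXPA18 moved with the same treatment: EXPA18 was at 6.22 to 7.66 with 24-eBL over the genotypes and at 8.46 to 9.49 without it, and EXPA7 was at 4.68 to 6.24 with 24-eBL and at 6.81 to 7.82 without it. They were the measured ones of the 8 root markers, and their part in the change of GID1B was not tested.

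Within genotypes no response of GID1B or GID1C passed the threshold. The difference of GID1B was 0.54 ± 0.19 in wild type (1.46-fold higher; limma adjusted p = 0.14; 4.67% of probe sets called, 2.20% as higher and 2.47% as lower), 0.39 ± 0.19 in msg2 (limma adjusted p = 0.35; 3.92% called, 1.52% as higher and 2.40% as lower) and 0.24 ± 0.19 in axr2 (limma adjusted p = 0.61; 2.41% called, 0.692% as higher and 1.72% as lower). With centred arrays the split of all calls was 210 higher and 182 lower in axr2, against 104 and 258 as deposited, and 273 higher and 270 lower in msg2, against 228 and 361 as deposited. The treated and mock arrays of GID1B did not overlap in wild type or msg2 and overlapped in axr2. Without single arrays its response ranged from 0.048 to 0.43 in axr2 and from 0.21 to 0.57 in msg2. That of GID1C was 0.03 ± 0.22 in wild type (limma adjusted p = 0.97), -0.32 ± 0.22 in msg2 (limma adjusted p = 0.54) and 0.42 ± 0.22 in axr2 (limma adjusted p = 0.38). Without single arrays the response of GID1C ranged from 0.16 to 0.68 in axr2 and from -0.45 to -0.19 in msg2. Both treated msg2 arrays of GID1C lay below both mock arrays, and both treated axr2 arrays lay above both mock arrays.

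No difference of response between genotypes was called for either gene. The largest was that of GID1C between axr2 and msg2, at 0.74 ± 0.32 (95% confidence interval 0.08 to 1.41, limma adjusted p = 0.44, unadjusted p = 0.030; 0.546% of probe sets called, 0.213% as higher and 0.333% as lower). Against wild type, the response of GID1C differed by 0.40 in axr2 (-0.27 to 1.06, limma adjusted p = 0.58; 2.60% called, 1.11% as higher and 1.49% as lower) and by -0.35 in msg2 (-1.01 to 0.32, limma adjusted p = 0.81; 0.213% called, 0.140% as higher and 0.0732% as lower). With centred arrays the split of all calls was 320 higher and 144 lower for axr2, against 167 and 224 as deposited, and 26 higher and 8 lower for msg2, against 21 and 11 as deposited. The response of GID1B differed by -0.30 in axr2 (-0.88 to 0.27, limma adjusted p = 0.63) and by -0.15 in msg2 (-0.73 to 0.42, limma adjusted p = 0.92). These intervals leave room for a response in the mutants well above or below that of wild type.

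**Figure D3:**
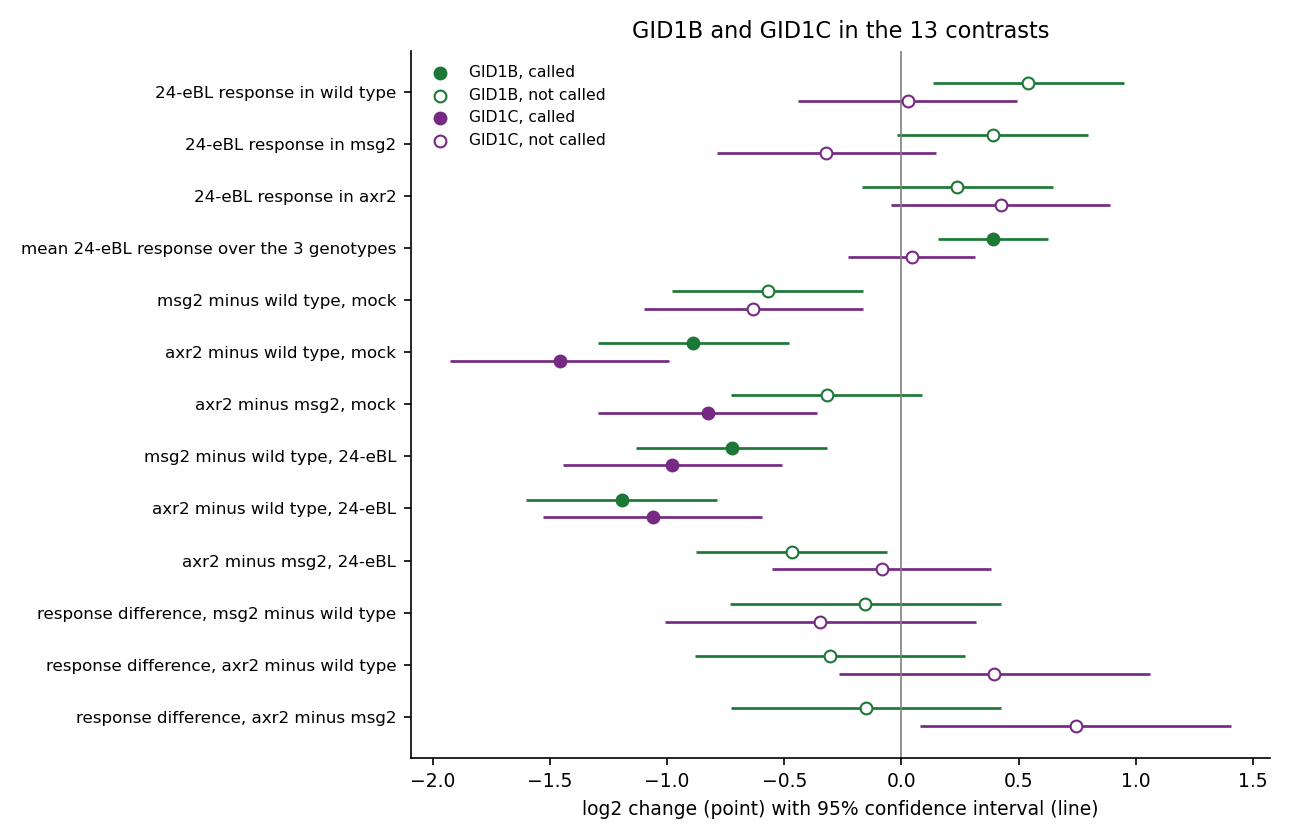
Log2 change (points, horizontal axis) with 95% confidence interval (lines) of GID1B and GID1C in 13 contrasts (vertical axis), with filled points for contrasts called at a limma adjusted p under 0.05. In the contrasts of axr2 with wild type both genes are called with negative changes, from -1.46 to -0.89, and the mean response to 24-eBL is called for GID1B at 0.39.

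Differences between receptor genes on the same array show whether the genes changed unequally, and a scaling factor of the array cancels in them. Probe sets are not on one scale, so a difference is not a ratio of transcript amounts. GID1B minus GID1A was -0.71 and -0.89 in axr2 with 24-eBL, -0.50 and -0.33 in msg2 with 24-eBL, and 0.29 and 0.45 in wild type with 24-eBL. Without 24-eBL it was -0.93 and -0.70 in axr2, -0.68 and -0.89 in msg2, and -0.32 and -0.25 in wild type. The wild-type arrays were above all mutant arrays of the same treatment.

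GID1C minus GID1A was -2.41 and -1.69 in axr2 with 24-eBL, -1.94 and -2.16 in msg2 with 24-eBL, and -1.08 and -0.94 in wild type with 24-eBL. Without 24-eBL it was -2.63 and -1.87 in axr2, -1.49 and -1.92 in msg2, and -1.10 and -1.19 in wild type. All 4 wild-type arrays again lay above all 8 mutant arrays.

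These differences from GID1A were compared among the 3 genotypes after the values had been seen, by an exact permutation test that exchanged genotype labels within treatments over 8100 arrangements. The p was 0.00148 for GID1B minus GID1A and 0.00815 for GID1C minus GID1A, or 0.00444 and 0.0122 when adjusted over the 3 pairs of receptor genes. For GID1B minus GID1C the exact permutation p was 0.666. Averaged over both treatments, GID1B minus GID1A was lower by 0.85 in axr2 and by 0.64 in msg2 than in wild type, and GID1C minus GID1A was lower by 1.07 in axr2 and by 0.80 in msg2. A test of a single mutant against wild type could not give an exact permutation p under 0.0556, and each of these 4 reached that value.

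GID1B minus GID1C differed by 0.35 on average between 24-eBL and mock, with an exact permutation p of 0.12, so GID1B and GID1C were not shown to respond differently. With 24-eBL this difference was 1.70 and 0.80 in axr2, 1.44 and 1.83 in msg2, and 1.36 and 1.39 in wild type. Without 24-eBL it was 1.70 and 1.17 in axr2, 0.81 and 1.04 in msg2, and 0.78 and 0.94 in wild type. Treated arrays were above mock arrays in msg2 and wild type, and the groups overlapped in axr2. Between axr2 and wild type it differed by 0.22 on average (exact permutation p = 0.50). In tests that were not planned, GID1B minus GID1A differed by 0.34 between 24-eBL and mock (exact permutation p = 0.037, not adjusted). GID1C minus GID1A differed by -0.0037 (exact permutation p = 0.98).

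**Figure D4:**
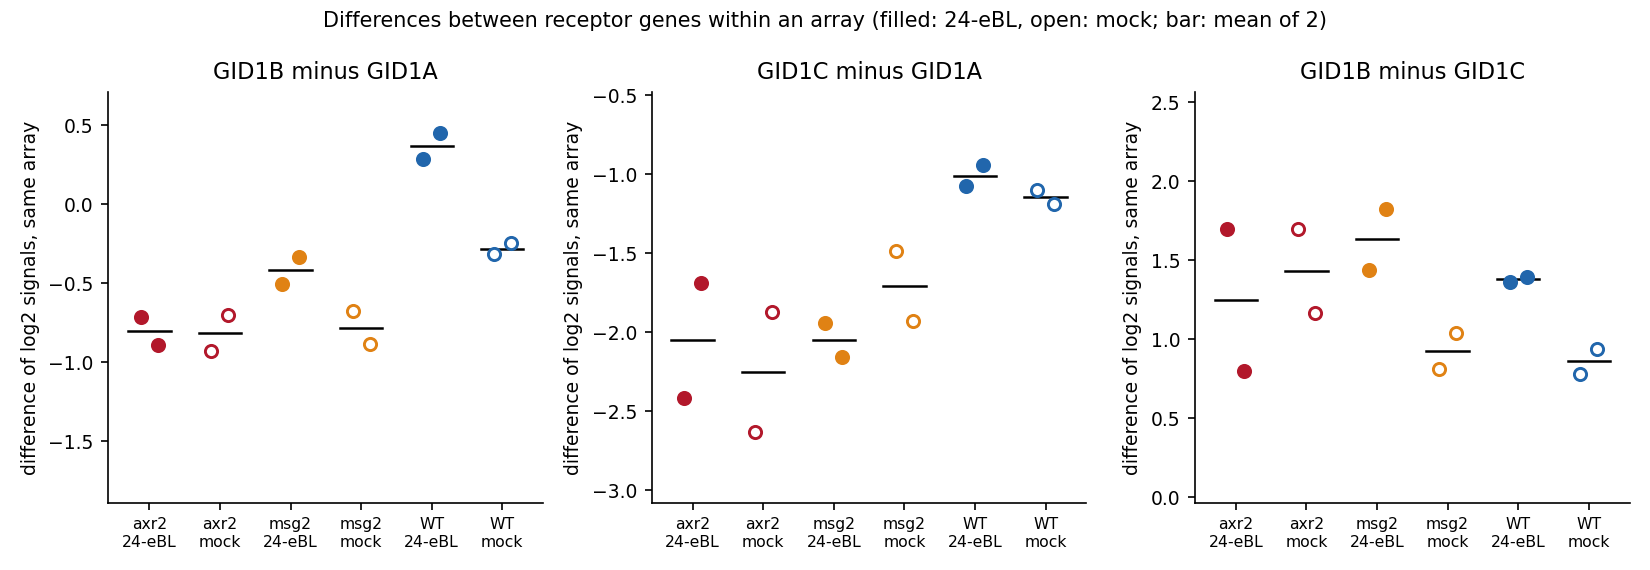
Difference of log2 signals (vertical axis) between pairs of receptor genes on the same array, by genotype and treatment, with filled points for 24-eBL, open points for mock and a bar at the mean of 2 arrays. GID1B minus GID1A and GID1C minus GID1A are highest in wild type, and GID1B minus GID1C shows no order by genotype (exact permutation p = 0.666).

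Other gibberellin genes were taken from a list of 63 genes by locus, of which 14 had a single-gene probe set and 11 were tested, 9 of them other than GID1B and GID1C. Genes of gibberellin synthesis and inactivation and the DELLA genes themselves were not analysed here. In axr2 without 24-eBL 4 of the 9 were called higher and 1 lower than in wild type, where 20.5% of all tested probe sets were called higher and 15.0% lower. Their median change was 0.42, against 0.13 over all tested probe sets. With 24-eBL 1 of the 9 was called higher and none lower, where 14.6% of all tested probe sets were called higher and 14.0% lower, with a median of 0.09 for the 9 and 0.02 for all. In msg2 none of the 9 was called against wild type, in contrasts where 7.51% of all tested probe sets were called with 24-eBL and 4.12% without it. GID1A, the genes SPY and SEC, whose products attach sugars to DELLA proteins, and SLY1 were not called in any contrast with wild type in the fit to all 12 deposited arrays. The exceptions of GID1A with centred arrays and without axr2 mock replicate 1 are given above.

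The transporter gene NPF3.1 (AT1G68570), whose product carries gibberellin into cells, was higher in axr2. Its signal with 24-eBL was 8.19 and 8.01 in axr2 and 6.94 and 6.82 in wild type (2.33-fold, limma adjusted p = 0.0012), and without 24-eBL 7.49 and 7.83 in axr2 and 6.22 and 5.99 in wild type (2.92-fold, limma adjusted p = 0.00013). It was also 1.51-fold higher with 24-eBL in the mean over genotypes (limma adjusted p = 0.014). Against msg2 it was 2.23-fold higher in axr2 with 24-eBL (limma adjusted p = 0.0046; 0.059 without axr2 with 24-eBL replicate 1) and 2.42-fold higher without it (limma adjusted p = 0.0019). Its mock wild-type signals lay just above the limit for dim values. The changes against wild type and with 24-eBL were called in all 12 fits without 1 array. NPF3.1 thus had the direction of GID1B under 24-eBL and a direction opposite to GID1B and GID1C in axr2.

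The F-box genes of DELLA breakdown gave smaller or dimmer signals of change. SLY2 (AT5G48170), a homologue of SLY1, was at 6.71 and 7.31 in axr2 without 24-eBL and dim on both mock wild-type arrays, at least 1.97-fold higher in axr2 (limma adjusted p = 0.026). That call was lost with quantile normalisation (0.087), with arrays centred on their medians (0.075), with no filter (0.067) and without wild type mock replicate 1 or 2 or axr2 mock replicate 2 (0.089, 0.092 and 0.20). Against msg2, SLY2 was at least 2.29-fold higher in axr2 with 24-eBL (limma adjusted p = 0.019) and at least 1.83-fold higher without it (limma adjusted p = 0.015), with dim values in msg2. Without 24-eBL that call was lost without msg2 mock replicate 2 (0.13) or axr2 mock replicate 2 (0.14), and with 24-eBL without msg2 with 24-eBL replicate 1 (0.13) or axr2 with 24-eBL replicate 1 (0.20), or with no filter (0.055). SLY1 was at 9.12 and 9.51 in axr2 mock and 9.89 and 9.80 in msg2 mock, 1.44-fold lower in axr2 (limma adjusted p = 0.041), and was not called in 7 of 12 fits without 1 array, without the intensity trend (0.077) or in a fit to the compared arrays alone (0.084).

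Of the 14 loci listed as gibberellin-regulated peptide genes, which the tables used do not name, 3 were tested. AT2G14900, at 13.66 and 14.40 in axr2 and 13.36 and 13.29 in wild type without 24-eBL, was 1.63-fold higher in axr2 (limma adjusted p = 0.0051; 0.11 without axr2 mock replicate 2, and 0.074 with arrays centred). It was 1.73-fold higher than in msg2 mock (limma adjusted p = 0.0053; 0.088 without axr2 mock replicate 2, 0.069 without msg2 mock replicate 2 and 0.053 without the intensity trend). Its mean response to 24-eBL was 0.37 (limma adjusted p = 0.031) and was called in 4 of 12 fits without 1 array. That call held in 7 of 10 alternatives other than leave-outs. Among the losses were the fit with no filter (0.11) and that without the intensity trend (0.15). AT5G59845 was called lower and AT1G22690 higher in axr2 without 24-eBL, but with dim values on both axr2 arrays of AT5G59845 and on 3 of the 4 arrays of AT1G22690. After raising dim values to the limit, the change of AT5G59845 was -0.57 and no longer called (limma adjusted p = 0.074). That of AT1G22690 was then 0.42 and stayed called. The change of AT1G22690 was 3.39 as deposited and 0.98 (limma adjusted p = 0.34) without wild type mock replicate 1, and its call was also lost without axr2 mock replicate 2 (0.10), without the intensity trend (0.054) and in the compared arrays alone (0.093). The call of AT5G59845 was lost without axr2 mock replicate 1 (0.17), without wild type mock replicate 1 (0.13) or 2 (0.066), and with no filter (0.063).

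The receptors are related in sequence to plant carboxylesterases, and 3 of 7 genes with a CXE symbol were tested. None of CXE16, CXE18 and CXE20 was called in any of the 13 contrasts. Of all tested probe sets, 0.213% to 35.5% were called, depending on the contrast, so 3 uncalled genes do not set the relatives apart. The difference of CXE20 from wild type was -0.26 in axr2 and -0.48 in msg2 without 24-eBL (limma adjusted p = 0.40 and 0.26).

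Signals of GID1B and GID1C had a Pearson r of 0.77 with each other over the 12 arrays, and 3.62% of the other tested single-gene probe sets had a higher r with GID1B. The points share genotype and treatment groups of 2 arrays, so these correlations are descriptions. Among 8148 other single-gene probe sets, 27 had an r over 0.9 with GID1B and 51 with GID1C. The 5 most like GID1B were AT2G18690 (r = 0.969), AT2G39980 (0.966), AT5G01210 (0.966), AT1G10740 (0.949) and XTH33 (0.941), a xyloglucan endotransglucosylase/hydrolase gene of cell-wall remodelling. The 5 most like GID1C were AT1G56220 (r = 0.962), PRA1.A1 (0.956), the autophagy gene ATG8E (0.956), AT1G63840 (0.955) and AT1G61890 (0.951).

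In the mean over genotypes 4 of the 5 genes most like GID1B were called higher with 24-eBL, where 3.73% of all tested probe sets were called higher, with changes from 0.63 in AT2G39980 to 0.96 in AT2G18690, and AT1G10740 was not (0.25, limma adjusted p = 0.12). None of the 5 genes most like GID1C was called in that contrast, with changes from -0.03 to 0.14. Since the genes were picked by likeness, these values describe the pattern and are not a test of it. XTH33 with 24-eBL was at 8.92 and 8.65 in axr2, 10.39 and 10.25 in msg2, and 11.23 and 11.37 in wild type. ATG8E without 24-eBL was at 8.48 and 8.78 in axr2, 9.92 and 9.62 in msg2, and 10.06 and 10.56 in wild type. With 24-eBL ATG8E was at 8.85 and 9.65 in axr2, 9.59 and 9.45 in msg2, and 9.99 and 10.24 in wild type. There the arrays of axr2 and msg2 overlapped.

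**Figure D5:**
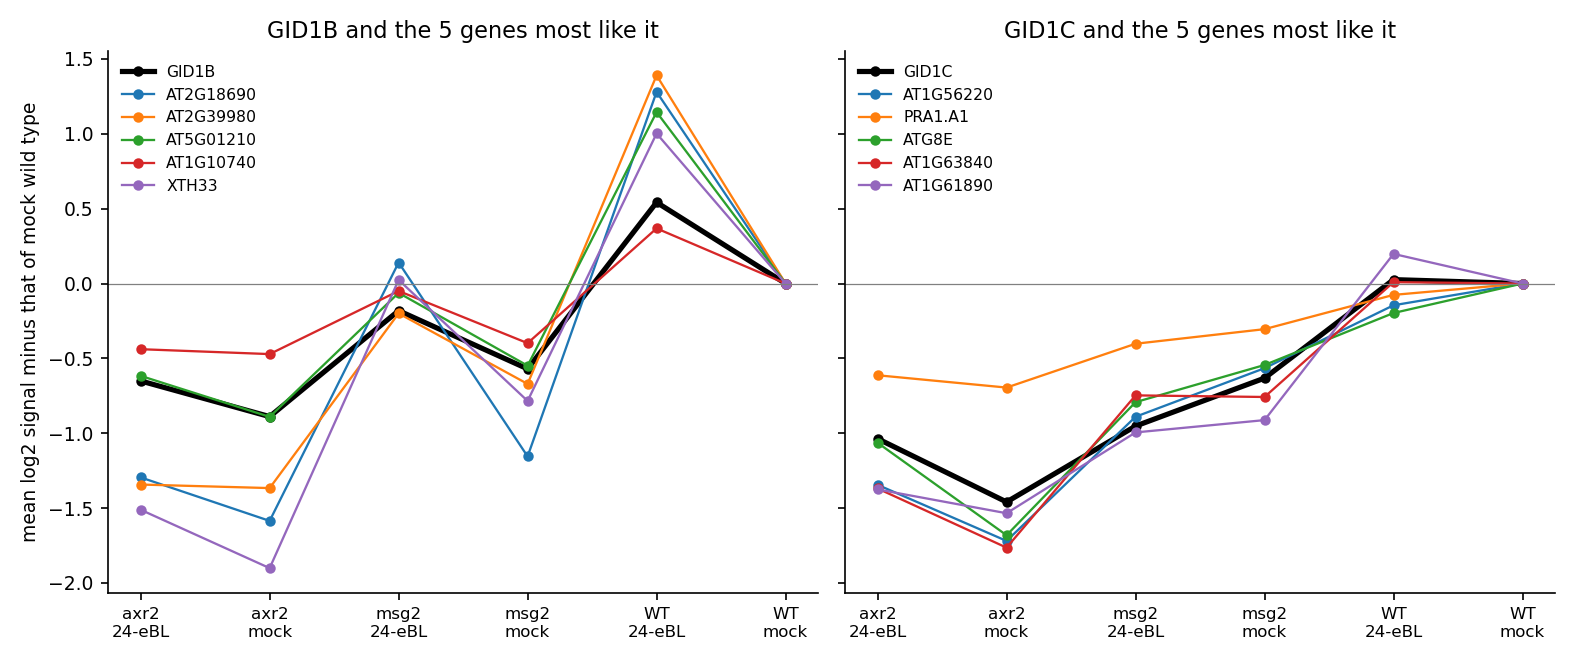
Mean log2 signal of each group minus that of mock wild type (vertical axis) by genotype and treatment, for GID1B with the 5 genes of highest r (left) and GID1C with the 5 genes of highest r (right). The black line is the receptor gene, lowest in axr2 mock in both panels (-0.89 and -1.46), and the left panel has its peak in wild type with 24-eBL.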

How the data were processed

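The log2 signals of 12 Affymetrix ATH1 arrays were used as deposited. The authors computed them with MAS 5.0 and name GeneSpring 11.0, per the labels' design text. The log2 base was read from the values: the 2% trimmed mean of the linear signal was 500.05 to 500.06 on every array. No genome build is given in the sources used here.

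Probe sets above the 40th percentile of the array on 2 or more arrays were kept (15025 of 22746, after 64 control probe sets were left out). One mean per group was fitted in limma 3.58.1 (R 4.3.3; lmFit, eBayes with trend; 6 residual degrees of freedom), 13 contrasts were taken, and p was adjusted by Benjamini-Hochberg within each. Exact permutation tests over samples used Python 3.11.15. The fit was tested on simulated data. Genes were named through a platform table and RefSeq TAIR10.1 symbols by gene ID, for single-gene probe sets. A fold against dim values is given as "at least", computed with them set to that percentile. The adjusted p printed beside such a fold is that of the change as deposited, before dim values were raised.

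The members, lists and tests were chosen with earlier results of these data known. Named were GID1B, GID1C, listed gibberellin genes called in any contrast, and the 5 genes of highest r; the listed genes GID1A, SPY, SEC, CXE16, CXE18 and CXE20 and the measured markers PORB, EXPA7 and EXPA18 are named outside that rule, after their values were seen. No pairing of arrays by replicate number was seen in the values: deviations of same-numbered arrays correlated at -0.08 to 0.07 over 15 pairs of groups. Whether same-numbered arrays were handled together cannot be told from this. The number of arrays limits the precision, and p-values measure the spread between these arrays only. Alternatives in scaling, filter, offset, model, block and left-out arrays were run for GID1B and GID1C, and, chosen after seeing the data, for the called contrasts of the other genes named by the rule and for 5 contrasts of GID1A; they were not run for the CXE genes, SPY, SEC or the markers.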

Additional observations from a re-analysis of the deposited data

How the results depend on the processing

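Over the 11 alternatives to the model other than leave-outs (10 for the mean response), GID1B and GID1C kept direction and side of the threshold in axr2 against wild type, with changes from -1.68 to -0.86. Of these alternatives, reading the main fit at an adjusted p under 0.1 could not lose a call. Raising dim values left the changes of GID1B and GID1C as they were, since neither gene had a dim value. Without the intensity trend 2 calls of GID1B were lost, the mean response to 24-eBL (0.39) and msg2 against wild type with 24-eBL (-0.72). The response of GID1C in wild type (0.03) turned to -0.0099 with quantile normalisation and -0.032 with centred arrays, and the difference of GID1A in axr2 with 24-eBL (-0.02) turned to 0.021 with quantile normalisation, none of them called. GID1A became called lower in axr2 mock with centred arrays (-0.58), and ranged from -0.59 to -0.12 there without single arrays. The cause of these shifts was not tested. Without single arrays, GID1C ranged from -0.061 to 0.11 in the wild-type response, from -0.044 to 0.13 in the mean response, from -1.07 to -0.89 in msg2 against wild type with 24-eBL, and in axr2 against msg2 from -0.97 to -0.68 mock and from -0.35 to 0.18 with 24-eBL. GID1B ranged from 0.33 to 0.45 in the mean response and from -0.91 to -0.54 in msg2 against wild type with 24-eBL. Its response difference ranged from -0.34 to 0.029 in msg2 against wild type and from -0.34 to 0.040 in axr2 against msg2. GID1B minus GID1C ranged from -0.0057 to 0.45 between axr2 and wild type. GID1A ranged from -0.17 to 0.025 in msg2 mock, from -0.033 to 0.16 in msg2 with 24-eBL, from -0.12 to 0.082 in axr2 with 24-eBL and from -0.032 to 0.13 in the mean response.

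With the replicate number as a block, the mean response of GID1B was 0.39 (limma adjusted p = 0.046), and no call of GID1B or GID1C changed. The probe sets called in msg2 against wild type with 24-eBL numbered 1128, but 502 without the intensity trend and 369 to 630 without single arrays of the groups compared. In axr2 against wild type with 24-eBL they numbered 4296, and 2820 without axr2 with 24-eBL replicate 1. In msg2 against wild type mock they numbered 619, but 181 without the intensity trend, 1035 in the compared arrays alone and 144 to 337 without single arrays of the groups compared. In axr2 against msg2 they numbered 2522 mock, but 1044 and 1504 without msg2 mock replicates 1 and 2 and 1581 without axr2 mock replicate 2, and 1924 with 24-eBL, but 1034 to 1232 without single arrays compared. The responses gave 701 in wild type (397 without the trend, 351 to 401 without wild type mock replicates 1 and 2 or wild type with 24-eBL replicate 1), 589 in msg2 (253 without the trend, 936 in the compared arrays alone, 236 to 378 without single arrays compared) and 362 in axr2 (165 without the trend, 221 in the compared arrays alone, 196 and 222 without axr2 with 24-eBL replicate 2 and axr2 mock replicate 1). Response differences gave 391 for axr2 against wild type (126 without the trend, 247 with no filter, 189 to 242 without 3 single arrays), 82 for axr2 against msg2 (17 without the trend, 49 with no filter, 42 to 50 without single msg2 arrays) and 32 for msg2 against wild type (1 without the trend, 14 with no filter, 51 in the compared arrays alone, 15 to 50 without 4 single arrays). Signal over background limits the statements on genes with dim values.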
